A study of Mus musculus with 20 samples.

Results

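The transcripts described here are those of 4 genes that guide lymphocytes into the small intestine: the chemokine gene Ccl25 and the chemokine receptor genes Ccr9, Ccr6 and Cxcr6. They were chosen by gene symbol among the 648 real-time PCR assays (584 gene symbols) of a mouse inflammation panel, and each symbol had 1 assay, so that 4 of the 648 assays are members. All 4 gave a value in each of the 20 samples of ileal mucosa, the lining of the last stretch of the small intestine. The samples fall into 4 groups of 5. The CEC group received DNBS (dinitrobenzene sulfonic acid, a hapten used to provoke colitis) into the rectum and an agent by mouth that the labels call CEC. The Nissle group received the same rectal DNBS and Nissle by mouth, which is the name of a probiotic Escherichia coli strain. The DNBS group received rectal DNBS with phosphate-buffered saline (PBS) by mouth, and the Healthy group received PBS by both routes. For Nissle 3, 4 and 5 the experimental group label is that of the healthy controls, whereas their title, description and both treatments name Nissle, and they were kept in the Nissle group. Strain, sex, age, dose and the time after DNBS are not given in the sources used here. The series text speaks of RNA pooled from mice, so the p-values below cover only sample-to-sample spread, part or all of which may be technical.

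CCL25 is a chemokine made by the epithelium of the small intestine and by the thymus, and CCR9, its receptor, is carried by T cells and IgA-secreting cells that home to the small intestine. CCR6 is the receptor of CCL20, which the epithelium over lymphoid follicles makes, and it is carried by B cells, Th17 cells and lymphoid tissue inducer-like innate lymphoid cells. CXCR6 is the receptor of CXCL16 and is carried by natural killer T cells, innate lymphoid cells and tissue-resident T cells.

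Levels are given as a relative level. The cycle threshold (Ct) is the number of PCR cycles an assay needs to reach a set fluorescence, so that an earlier Ct means more template. The relative level is the average Ct of the 544 assays measured in all 20 samples, minus the Ct of the assay of interest, both from 1 sample. It was read as log2 on the assumption that product doubles with every cycle. A level of 0 is thus the sample's own average, and levels are compared between samples for 1 assay and not between assays, whose efficiencies are unknown. Each sample had values for 570 to 594 assays, and the average Ct of those 544 lay between 22.6 and 24.3 cycles. The 3 measured epithelial markers (Apoa1, Reg3g and Tgm2) averaged 8.07 in CEC, 7.85 in Nissle, 8.09 in DNBS and 7.88 in Healthy samples, so that transcripts of the labelled tissue were present. A further epithelial marker, Apoa4, gave no value in any sample. In whole mucosa, fewer cells of a type and less RNA per cell cannot be told apart.

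The assays differ in one respect that bears on the receptors. The Ccl25 assay (Mm00436443_m1) spans an exon junction, whereas the assays for Ccr9 (Mm02620030_s1), Ccr6 (Mm99999114_s1) and Cxcr6 (Mm02620517_s1) lie within 1 exon, as their suffix shows, and can also amplify genomic DNA. The panel has 53 such single-exon assays, and their values as a class are given beside those of the receptors. Cxcr6 moreover lies within the annotated span of Fyco1, a protein-coding gene on the opposite strand. Ccr9, Ccr6 and Ccl25 each overlap an annotated long non-coding RNA (Gm17021, Gm33799 and LOC108167518), and amplified cDNA does not tell such overlapping transcripts apart where they share the amplified stretch.

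Ccr9 and Cxcr6 are neighbours on chromosome 9. In the RefSeq annotation, Fyco1 is the only gene whose lowest coordinate lies between the end of Ccr9 and the start of Cxcr6. Fyco1 is read from the opposite strand, so its transcription start lies on the far side of Cxcr6. The windows from 250 bases before to 50 bases after the annotated starts are printed to show how unlike the 2 starts of Ccl25 are and how the windows of the 2 neighbouring receptors compare. The sequences are RefSeq's for GRCm38.p6, 5′ to 3′ on the + strand, the strand of all 3 genes. Capitals mark the motifs that were searched on both strands: TATAAA (the TATA box), ATTGG (the CCAAT box in reverse), CAGGTG (an E-box, the site of bHLH and some zinc finger factors) and TGTGGT (the core of RUNX factor sites, on the other strand ACCACA). No match overlapped another.
Ccl25, upstream start, chr8:4324960-4325259: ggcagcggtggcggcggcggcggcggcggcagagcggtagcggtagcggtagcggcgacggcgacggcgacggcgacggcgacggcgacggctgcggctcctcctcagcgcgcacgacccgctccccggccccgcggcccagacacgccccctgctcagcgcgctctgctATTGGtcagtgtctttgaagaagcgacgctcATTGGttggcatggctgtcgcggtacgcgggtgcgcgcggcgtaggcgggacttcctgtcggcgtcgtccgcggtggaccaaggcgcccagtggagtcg
Ccl25, downstream start, chr8:4349338-4349637: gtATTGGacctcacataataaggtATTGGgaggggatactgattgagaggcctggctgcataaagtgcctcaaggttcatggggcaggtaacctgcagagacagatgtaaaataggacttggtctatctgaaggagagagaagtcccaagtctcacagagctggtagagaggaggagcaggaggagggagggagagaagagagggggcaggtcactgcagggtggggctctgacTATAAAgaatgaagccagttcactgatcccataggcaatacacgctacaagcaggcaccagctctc
Ccr9, chr9:123766961-123767260: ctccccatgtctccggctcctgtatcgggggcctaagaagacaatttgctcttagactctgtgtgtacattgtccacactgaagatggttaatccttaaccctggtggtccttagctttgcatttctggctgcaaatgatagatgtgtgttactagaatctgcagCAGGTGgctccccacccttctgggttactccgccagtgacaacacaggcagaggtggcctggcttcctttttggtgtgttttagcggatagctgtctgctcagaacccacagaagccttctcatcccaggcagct
Cxcr6, chr9:123806227-123806526: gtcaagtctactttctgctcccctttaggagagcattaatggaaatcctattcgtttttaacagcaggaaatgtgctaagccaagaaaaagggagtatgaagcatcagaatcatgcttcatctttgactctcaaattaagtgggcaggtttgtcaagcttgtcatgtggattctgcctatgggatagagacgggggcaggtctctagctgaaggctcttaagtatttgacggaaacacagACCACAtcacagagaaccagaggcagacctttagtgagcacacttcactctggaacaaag
The upstream Ccl25 window held 52 CG dinucleotides, more than 99.4% of the 32851 windows in the RefSeq table, and 2 CCAAT boxes in reverse, but no TATA box. The downstream Ccl25 window held 1 CG, 1 TATA box and 2 CCAAT boxes in reverse. The TATA box letters occur in 13.6% of all windows and those of the CCAAT box in 37.4%. Which of the starts the measured Ccl25 transcripts used was not tested. The Ccr9 window held 4 CG and 1 E-box, a motif of 20.2% of all windows, and the Cxcr6 window held 3 CG and 1 RUNX motif, found in 16.8% of all windows. Ccr6, on chromosome 17, has 2 annotated starts with 2 and 10 CG, and the first of these windows held 1 RUNX motif. The median window had 7 CG. A match is a description of the letters and says nothing of a factor's binding.

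Across the 4 groups, the DNBS group had the lowest mean level of all 4 genes. The same holds for 30.1% of the 569 assays tested and for 69.8% of the 53 single-exon assays. The order of the other groups differed from gene to gene: Ccl25 was highest in Healthy samples, Ccr9 in CEC samples, Ccr6 in Healthy samples and Cxcr6 in Nissle samples. None of the 24 differences (4 genes in 6 comparisons) passed an adjusted p of 0.05 in limma, a linear model with a shared estimate of spread, with Benjamini-Hochberg adjustment over all 569 assays. The adjusted threshold was passed by 0.176% of all assays in each comparison with Healthy samples and by 0% in the comparisons of CEC with DNBS, Nissle with DNBS and CEC with Nissle samples. In limma without adjustment, 6 of the 24 had a p under 0.05: 3 of 4 genes in CEC against DNBS samples (10.7% of all assays), 2 of 4 in DNBS against Healthy samples (14.6%) and 1 of 4 in Nissle against DNBS samples (4.22%). There were 0 of 4 in CEC against Healthy (3.87% of all assays), in Nissle against Healthy (9.49%) and in CEC against Nissle samples (1.41%). In the exact two-sided permutation test over 5 against 5 samples, 2 of the 24 had a p under 0.05, Ccl25 in DNBS against Healthy samples (15.5% of all assays) and Ccr9 in CEC against DNBS samples (11.1%). The shares of all assays in the other comparisons, where 0 of 4 genes did, were 3.16% in CEC against Healthy, 10.9% in Nissle against Healthy, 4.57% in Nissle against DNBS and 2.11% in CEC against Nissle samples. That exact test has 252 splits and cannot go below p = 0.00794.

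**Figure D1:**
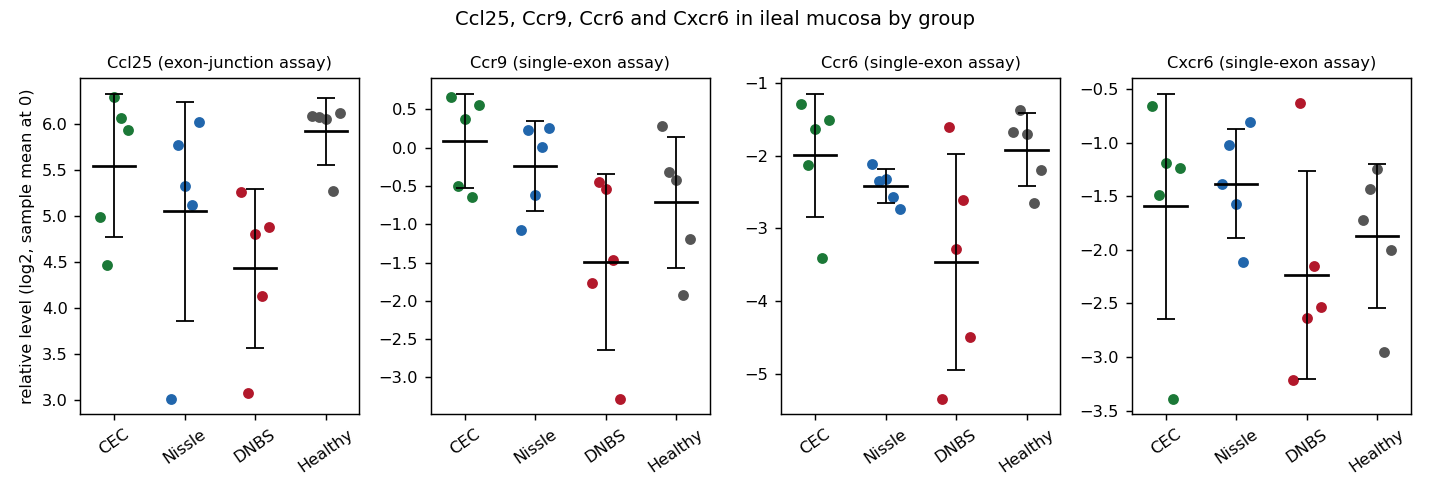
Relative levels (log2, the sample's own mean at 0) of Ccl25, Ccr9, Ccr6 and Cxcr6 in the CEC, Nissle, DNBS and Healthy groups, with 1 point per sample, the group mean as a line and the SD as a bar (n = 5). Ccl25 lay between 3.08 and 5.26 in DNBS samples and between 5.26 and 6.11 in Healthy samples, and each receptor had its lowest group mean in DNBS samples.

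Ccl25, the ligand, had relative levels of 4.99, 4.46, 6.28, 6.05 and 5.93 in the CEC samples 1, 3, 5, 7 and 8. In the Nissle samples 1 to 5 they were 3.02, 5.77, 5.32, 5.11 and 6.01. In the DNBS samples 1 to 5 they were 5.26, 3.08, 4.80, 4.13 and 4.88, and in the Healthy samples 1b, 3, 4, 5 and 6 they were 6.08, 6.07, 6.04, 5.26 and 6.11. The Healthy samples were tightly grouped except for Healthy 5, and every DNBS sample lay below every Healthy sample. The CEC and Nissle samples spread over both ranges, with Nissle 1 below all DNBS samples. The Ccl25 transcript came up early in the run, at a Ct of 16.8 to 19.7 cycles.

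Ccl25 averaged 4.43 ± 0.86 in DNBS and 5.92 ± 0.36 in Healthy samples (SD, n = 5 each), a log2 difference of -1.49 (SE 0.49), or 2.80-fold lower in DNBS samples. It did not pass the adjusted threshold in limma (p = 0.006, adjusted p = 0.15), while the exact permutation p was 0.00794, the smallest these group sizes allow. The adjusted threshold was passed by 0.176% of the 569 assays in this comparison. Groups that did not overlap with DNBS below Healthy were seen for 2.46% of all assays. The gap was narrow: DNBS 1, the highest DNBS sample, lay 0.0073 below Healthy 5, the lowest Healthy sample. With the median of the same assays as the normalizer the 2 samples changed places (4 of 5 DNBS samples below Healthy 5). Without normalization they also changed places, and only 3 of 5 Healthy samples lay above DNBS 1. With 17 reference assays as the normalizer the gap was 0.28, between DNBS 5 and Healthy 5. With the replicate number as a block the difference was -1.11 (adjusted p = 0.669 in limma), and with array weights, which let noisier samples count less, it was -1.48 (adjusted p = 0.00586 in limma), a setting that called 101 of the 569 assays.

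Ccl25 averaged 5.54 ± 0.78 in CEC samples and 4.43 ± 0.86 in DNBS samples (SD, n = 5 each), a log2 difference of 1.12 (SE 0.49, limma p = 0.034, adjusted p = 0.455; exact permutation p = 0.0635). CEC 5, 7 and 8 lay above all DNBS samples, while CEC 1 and CEC 3 lay within their range. In Nissle samples the mean was 5.05 ± 1.19 (SD, n = 5), 0.62 above DNBS samples (SE 0.49, adjusted p = 0.853 in limma). Nissle 2, 3 and 5 lay above all DNBS samples. Without Nissle 3, 4 and 5, whose labels disagree, the difference from DNBS samples was -0.04 (SE 0.65). That setting leaves only Nissle 1 and Nissle 2 in the group, at 3.02 and 5.77. Leaving out 1 sample gave 0.28 (without DNBS 2) to 1.13 (without Nissle 1). Against Healthy samples, the log2 difference was -0.37 in CEC samples (95% interval -1.39 to 0.65) and -0.87 in Nissle samples (95% interval -1.89 to 0.15). Both intervals include 0 and also include changes of more than 1 cycle. Without Nissle 3, 4 and 5, the Nissle difference from Healthy samples was -1.53 (adjusted p = 0.200 in limma), and without Nissle 1 it was -0.36. CEC and Nissle samples differed by 0.50 (95% interval -0.52 to 1.52), by -0.01 without Nissle 1 and by 1.15 without Nissle 3, 4 and 5 (adjusted p = 0.610 in limma).

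Ccr9, the receptor of CCL25, had relative levels of 0.67, -0.50, 0.38, -0.64 and 0.55 in the CEC samples 1, 3, 5, 7 and 8. In the Nissle samples 1 to 5 they were -1.07, 0.23, -0.62, 0.01 and 0.26. In the DNBS samples 1 to 5 they were -1.77, -0.44, -0.54, -1.46 and -3.28, and in the Healthy samples 1b, 3, 4, 5 and 6 they were 0.28, -0.31, -0.42, -1.92 and -1.19. DNBS 5 was the lowest of all samples, 3 CEC and 3 Nissle samples lay above every DNBS sample, and the Healthy samples spread over 2.20 cycles.

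Ccr9 averaged 0.09 ± 0.61 in CEC and -1.50 ± 1.15 in DNBS samples (SD, n = 5 each), a log2 difference of 1.59 (SE 0.50), or 3.01-fold. The limma p was 0.004 and the adjusted p 0.385, and the exact permutation p was 0.0397. The Nissle samples averaged -0.24 ± 0.59 (SD, n = 5), 1.26 above DNBS samples (SE 0.50, limma p = 0.020, adjusted p = 0.850; exact permutation p = 0.0556). Without Nissle 3, 4 and 5 the Nissle difference was 1.07 (adjusted p = 0.526 in limma), and without DNBS 5 it was 0.81. Both comparisons use the same DNBS samples. DNBS samples lay 0.79 below Healthy samples, which averaged -0.71 ± 0.85 (SD, n = 5; adjusted p = 0.496 in limma), within the spread of either group. The DNBS difference was -0.34 without DNBS 5 and -0.76 with the replicate block. CEC samples lay 0.80 above Healthy samples (95% interval -0.23 to 1.84) and Nissle samples 0.47 above them (95% interval -0.56 to 1.51), or 0.17 without Healthy 5.

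In the comparisons with DNBS samples, the single-exon assays as a class differed in the same direction as Ccr9. Their median log2 difference was 0.64 in CEC against DNBS samples (43 of 53 higher), where the median of all 569 assays was -0.02, and 0.33 in Nissle against DNBS samples (39 of 53 higher; all assays -0.06). Within the class, Ccr9 ranked 2nd of 53 in CEC against DNBS samples and 1st in Nissle against DNBS samples. With the single-exon assays centred in each sample on their own mean, the Ccr9 difference was 1.0 in CEC against DNBS samples (adjusted p = 0.502 in limma) and 0.93 in Nissle against DNBS samples (adjusted p = 0.869 in limma). In DNBS against Healthy samples it was -0.10 on that scale. In CEC and in Nissle against Healthy samples, the class went the other way from Ccr9. The class medians there were -0.20 (34 of 53 lower) and -0.43 (40 of 53 lower). Centred on the class, Ccr9 lay 0.90 above Healthy samples in CEC samples and 0.83 above them in Nissle samples. Whether genomic DNA in the samples has a part in the class values was not tested.

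Ccr6, the CCL20 receptor, had relative levels of -1.30, -2.13, -1.63, -3.41 and -1.52 in the CEC samples 1, 3, 5, 7 and 8. In the Nissle samples 1 to 5 they were -2.11, -2.35, -2.33, -2.57 and -2.73. In the DNBS samples 1 to 5 they were -5.34, -1.61, -3.28, -2.62 and -4.49, and in the Healthy samples 1b, 3, 4, 5 and 6 they were -1.68, -1.38, -1.70, -2.65 and -2.20. The DNBS samples ranged widely, over 3.73 cycles, and the Nissle samples narrowly, over 0.62 cycles. DNBS 1, 3 and 5 lay below all Healthy samples, while Healthy 3 was the only Healthy sample above DNBS 2.

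The Ccr6 mean was -3.47 ± 1.48 in DNBS samples and -1.92 ± 0.50 in Healthy samples (SD, n = 5 each), a log2 difference of -1.54 (SE 0.55; limma p = 0.011, adjusted p = 0.158; exact permutation p = 0.0714), or -1.70 with the replicate block (adjusted p = 0.422 in limma). The median difference of the single-exon class in this comparison was -0.65 (47 of 53 lower), against -0.07 over all assays. Ccr6 ranked 47th of the 53 from the highest, and centred on the class its difference was -0.86 (adjusted p = 0.519 in limma). CEC samples averaged -2.0 ± 0.84 (SD, n = 5), 1.47 above DNBS samples (limma p = 0.014, adjusted p = 0.385; exact permutation p = 0.103) and 0.88 above them when centred on the class. Nissle samples averaged -2.42 ± 0.24 (SD, n = 5), 1.05 above DNBS samples (SE 0.55, adjusted p = 0.850 in limma), or 1.23 above them without Nissle 3, 4 and 5 and 0.58 without DNBS 1. CEC and Healthy samples differed in Ccr6 by -0.07 (95% interval -1.22 to 1.07), a difference that changed sign with 5 of 39 other settings. With array weights, Ccr6 passed in DNBS against Healthy samples (adjusted p = 0.0153 in limma), and Ccr9, Ccr6 and Ccl25 passed in CEC against DNBS samples (adjusted p = 0.0232, 0.0289 and 0.0239 in limma), where that setting called 47 of the 569 assays.

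Cxcr6, the CXCL16 receptor, had relative levels of -0.66, -1.49, -1.19, -3.39 and -1.24 in the CEC samples 1, 3, 5, 7 and 8. In the Nissle samples 1 to 5 they were -1.39, -1.02, -1.57, -2.11 and -0.81. In the DNBS samples 1 to 5 they were -3.22, -0.63, -2.64, -2.16 and -2.54, and in the Healthy samples 1b, 3, 4, 5 and 6 they were -1.72, -1.43, -1.25, -2.95 and -2.0. All groups overlapped, and DNBS 2 was the highest and CEC 7 the lowest of the 20 samples.

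The Cxcr6 mean was -2.24 ± 0.97 in DNBS samples and -1.87 ± 0.67 in Healthy samples (SD, n = 5 each), a log2 difference of -0.36 (95% interval -1.42 to 0.69). It was -0.59 with the replicate block, -0.12 without DNBS 1 and -0.76 without DNBS 2. Centred on the single-exon class, this difference turned to 0.32. CEC samples averaged -1.59 ± 1.05 (SD, n = 5), 0.64 above DNBS samples, which is the class median, and 0.06 above them on the class-centred scale. Leaving out 1 sample gave 0.40 (without DNBS 1) to 1.09 (without CEC 7). Nissle samples averaged -1.38 ± 0.51 (SD, n = 5) and lay 0.85 above DNBS samples (95% interval -0.20 to 1.91), or 1.02 above them without Nissle 3, 4 and 5. No Cxcr6 difference had an unadjusted limma p under 0.05. Of the 4 genes, Cxcr6 varied most with the sample's mean Ct: its level correlated with the sample's mean Ct at r = -0.57 (rho = -0.58, n = 20), a mean that also enters the level itself.

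**Figure D2:**
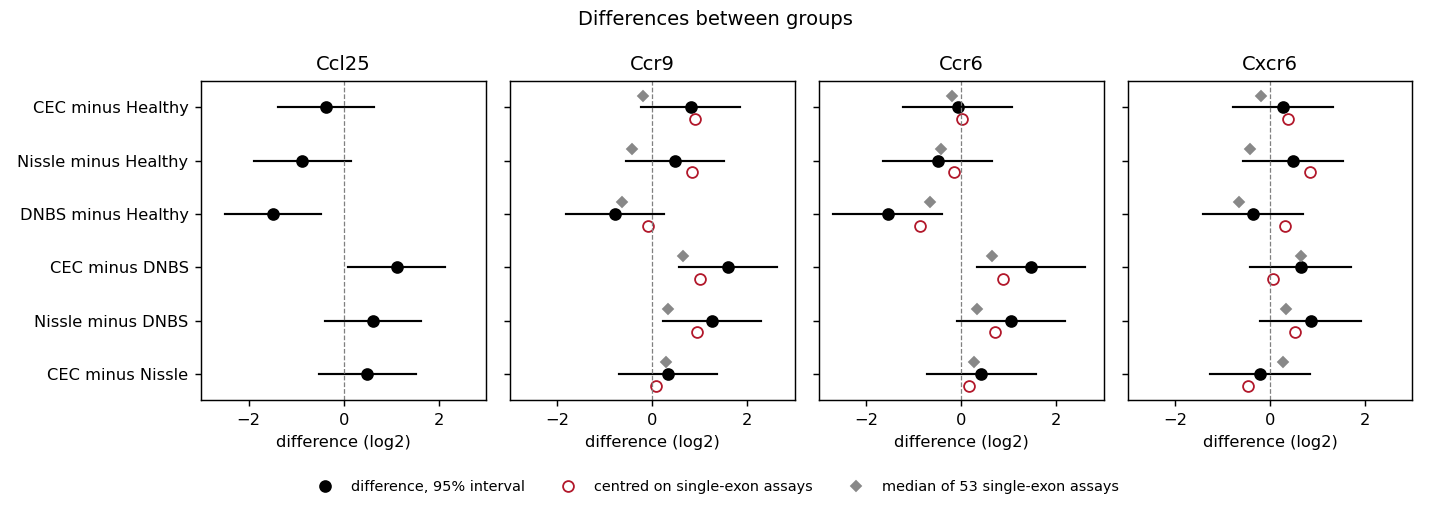
Log2 differences of Ccl25, Ccr9, Ccr6 and Cxcr6 between groups (black, with the 95% interval from limma), the same for the receptors after centring on the single-exon assays (open red) and the median of the 53 single-exon assays (grey diamonds). Ccr9 in CEC minus DNBS lies at 1.59, against 1.0 after centring and a class median of 0.64, and Cxcr6 in DNBS minus Healthy turns to 0.32 after centring.

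Ccl25, whose assay spans a junction, is not in the class, and its DNBS minus Healthy difference was -1.56 with the other assays centred on their own mean. Single-exon differences were set beside those of other assays for 7 genes, and not all of these others carry the m1 suffix of the Ccl25 assay. In DNBS against Healthy samples the single-exon difference was the lower for 4 genes and the higher for 3. In Nissle against Healthy samples it was the lower for 6 and the higher for 1. The remaining comparisons had 4 and 3 or 3 and 4. Such counts take no account of size. In DNBS against Healthy samples the sizes were unequal. The gap was largest for Ccr3, an eosinophil chemokine receptor, with a difference of -1.70 in DNBS against Healthy samples by its single-exon assay and -0.26 by its junction assay. Cxcr3, a receptor of Th1 cells, gave -0.53 and -0.63 by its 2 kinds of assay.

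The 3 receptors varied together across the 20 samples, and the correlations of Ccl25 with them were lower over all samples. Over all samples, Ccr6 and Cxcr6 correlated at r = 0.76 (rho = 0.72), Ccr9 and Ccr6 at r = 0.69 (rho = 0.67), and Ccr9 and Cxcr6 at r = 0.64 (rho = 0.72). After each group's mean was taken off, the values were 0.82, 0.62 and 0.58. These pairs share the sample's normalizer and the kind of assay. Ccl25 correlated with Ccr9, Ccr6 and Cxcr6 at r = 0.31, 0.06 and -0.09 over all samples. After each group's mean was taken off, these values were 0.14, -0.45 and -0.25, and without DNBS 2 and Nissle 1 they were 0.42, 0.33 and 0.25. The sign of the value for Cxcr6 thus turned without DNBS 2 and Nissle 1. In individual samples, DNBS 2 was highest of the DNBS samples in all 3 receptors and lowest of them in Ccl25, and CEC 7 was lowest of the CEC samples in all 3 receptors and above the CEC mean in Ccl25. CEC 7 also had the latest mean Ct of all samples, 24.3 cycles. Healthy 5 was the lowest Healthy sample for all 4 genes.

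Among assays of other genes with a value in all samples, those most like Ccl25 over the 20 samples were Nmi, an interferon-induced partner of STAT proteins (r = 0.95), Cd74, the invariant chain of MHC class II (r = 0.92), and Sectm1b, a secreted and transmembrane protein gene (r = 0.92). Without DNBS 2 and Nissle 1, the 2 samples farthest from the Ccl25 median, these were 0.92, 0.94 and 0.86. Assays like Ccr9 were those of Tollip, an adaptor in toll-like receptor signalling (r = 0.84), and Mapk8, the JNK1 kinase (r = 0.81). For Ccr6 the nearest were Icosl, the ligand of the ICOS costimulator (r = 0.79), F2r, the thrombin receptor (r = 0.79), and Il1rl2, the receptor for interleukin-36 (r = 0.78). These were 0.53, 0.67 and 0.58 without DNBS 1 and DNBS 5. Cxcr6 was most like Bmp7, a bone morphogenetic protein (r = 0.85), F2r (r = 0.85) and Fasl, the death ligand of cytotoxic lymphocytes (r = 0.84). These are the highest of many correlations and describe these samples only.

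Markers of other cell types were set beside the members. Ccl25 was low where the 7 neutrophil markers on the panel (Camp, Fpr1, Il8rb, Ltf, Ncf1, S100a8 and S100a9) were high, at r = -0.86 (rho = -0.74, n = 20), and at -0.82 after each group's mean was taken off. Nissle 1 and DNBS 2, with the lowest Ccl25, had the highest neutrophil marker means, 2.29 and 0.36. Without these samples r was -0.74. Ccl25 and the marker mean share the sample's normalizer, and the 7 markers are themselves part of it. The neutrophil marker mean ranged from -3.03 to 0.12 in CEC, -2.47 to 2.29 in Nissle, -2.44 to 0.36 in DNBS and -3.17 to -1.73 in Healthy samples, and all 7 had a value in every sample. Its part in the Ccl25 differences was not tested. Over all samples Ccl25 showed little relation to the mean of the 3 epithelial markers (r = 0.05), whose group means are given above. That correlation was 0.22 after each group's mean was taken off and -0.33 without DNBS 2 and Nissle 1.

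**Figure D3:**
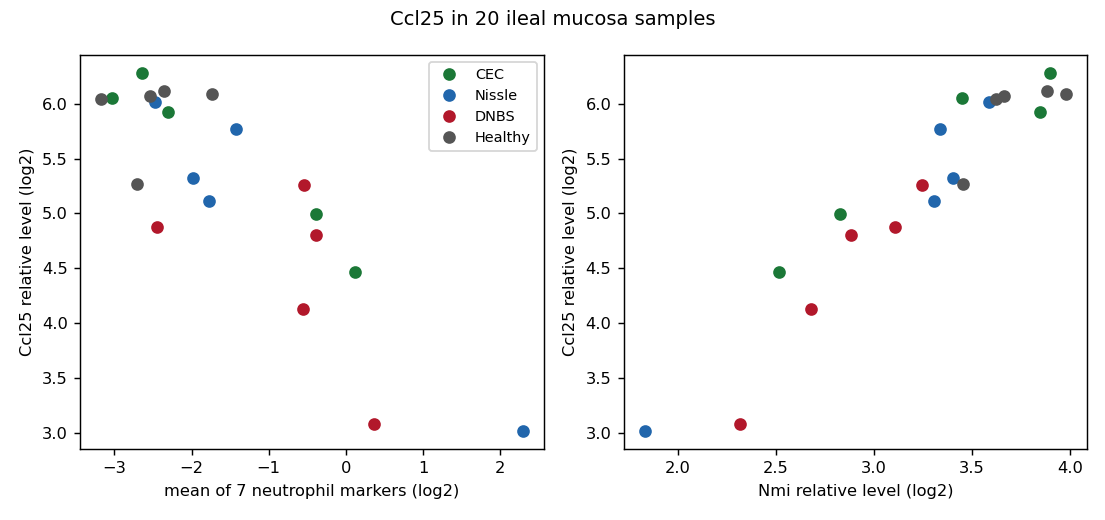
Relative level of Ccl25 (log2) in the 20 samples against the mean relative level of 7 neutrophil markers (left) and against Nmi (right), with 1 point per sample coloured by group. Nissle 1 and DNBS 2 have the lowest Ccl25, 3.02 and 3.08, and the highest neutrophil marker means, 2.29 and 0.36, and Ccl25 and Nmi run together at r = 0.95.

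The receptors are carried by lymphocytes, whose markers were therefore set beside them. Of 7 T and innate lymphoid cell markers on the panel, 6 had a value in every sample (Cd28, Cd4, Ctla4, Foxp3, Icos and Il7r). These 6 averaged -2.15 in CEC, -2.04 in Nissle, -2.14 in DNBS and -2.07 in Healthy samples. Their correlation with Ccr9 was r = -0.25, with Ccr6 -0.10 and with Cxcr6 -0.19. Single samples moved these values: the Ccr9 value was 0.19 without DNBS 5 and Healthy 5, and the Cxcr6 value -0.58 without CEC 7 and DNBS 1. The 3 B cell and follicle markers (Cd40, Cr2 and Ltb) averaged -1.16 in CEC, -1.29 in Nissle, -0.81 in DNBS and -0.43 in Healthy samples. They correlated with Ccr9 at r = -0.51, with Cxcr6 at r = -0.51 and with Ccr6, the receptor carried by B cells, at r = -0.15. No plasma cell marker of the list was on the panel. The 7 macrophage and dendritic cell markers, which include Cx3cr1 by a single-exon assay like those of the receptors, correlated with Ccr9, Ccr6 and Cxcr6 at r = 0.37, 0.41 and 0.52. Their correlation with Ccl25 was r = -0.60. Of 3 eosinophil markers on the panel, the 2 with a value in every sample correlated with Ccl25 at r = 0.49 (rho = 0.28). These were Prg2 and Ccr3, the latter by only 1 of its assays, whose differences were unequal as given above. Without the 2 samples farthest from each gene's median, the macrophage and dendritic cell values were 0.13, 0.23, 0.56 and -0.36, and the eosinophil value was 0.28.

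The ligands of the other receptors had differences smaller than their errors. Ccl20, the ligand of CCR6, averaged -1.52 ± 1.28 in CEC, -1.58 ± 2.39 in Nissle, -1.01 ± 1.64 in DNBS and -1.49 ± 0.47 in Healthy samples (SD, n = 5 each). Its DNBS minus Healthy difference was 0.48 (SE 0.92, adjusted p = 0.865 in limma). Cxcl16, the ligand of CXCR6, averaged 1.47 ± 0.25 in CEC, 1.51 ± 0.42 in Nissle, 1.46 ± 0.25 in DNBS and 1.61 ± 0.34 in Healthy samples (SD, n = 5 each), and its DNBS minus Healthy difference was -0.15 (SE 0.23, adjusted p = 0.831 in limma).

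Of 40 other homing and chemokine genes listed by name, 20 were on the panel and 19 (21 assays) were tested. None of the 21 assays passed the adjusted threshold of limma in any of the 6 comparisons, and an unadjusted p under 0.05 was seen for 4 in DNBS against Healthy (14.6% of all assays), 3 in CEC against DNBS (10.7%), 2 in Nissle against Healthy (9.49%), 1 in CEC against Healthy (3.87%) and 0 in Nissle against DNBS (4.22%) and CEC against Nissle samples (1.41%). In DNBS against Healthy samples 9 were higher (44.6% of all assays were) and 12 lower, with a median of -0.15 against -0.07 over all assays. In CEC against DNBS samples 12 were higher (48.0% of all assays were) and 9 lower, with a median of 0.14 against -0.02. Every single-exon assay among the 21 was lower in DNBS against Healthy and higher in CEC against DNBS samples. Of the whole single-exon class, 47 of 53 and 43 of 53 went these ways. The other assays of the list went both ways in both comparisons. The largest values with an unadjusted p under 0.05 were for Selp, the gene of P-selectin on activated endothelium. Selp lay 1.59 above Healthy samples in DNBS samples (SE 0.59, adjusted p = 0.158 in limma) and 2.02 above them in Nissle samples (SE 0.59, adjusted p = 0.458 in limma). Cx3cr1, the fractalkine receptor of mononuclear phagocytes, lay 1.28 above DNBS samples in CEC samples (SE 0.40, adjusted p = 0.385 in limma) and 0.95 above Healthy samples (SE 0.40, adjusted p = 0.803 in limma). Its assay is single-exon.

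The others below that p were also single-exon assays. Ccr8, a receptor of regulatory and Th2 cells, had differences of -1.48 and -1.51 by its 2 assays (Mm00843415_s1 and Mm99999115_s1) in DNBS against Healthy samples (adjusted p = 0.122 and 0.302 in limma). Mm99999115_s1 gave 1.42 in CEC against DNBS samples (adjusted p = 0.458 in limma), and Mm00843415_s1 gave -1.23 in Nissle against Healthy samples (adjusted p = 0.488 in limma). S1pr1, the receptor that lets lymphocytes leave lymphoid organs, had -0.88 in DNBS against Healthy samples (adjusted p = 0.318 in limma) and 1.02 in CEC against DNBS samples (adjusted p = 0.390 in limma).

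**Figure D4:**
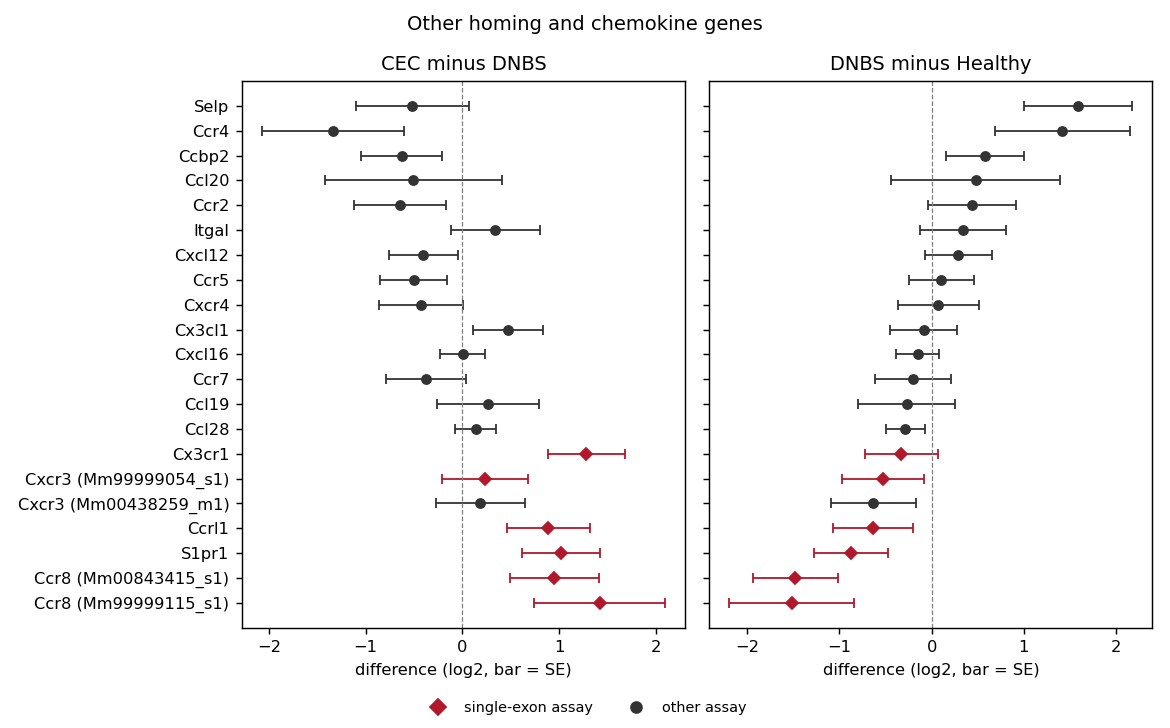
Log2 differences with SE bars for 21 assays of 19 other homing and chemokine genes, in CEC minus DNBS (left) and DNBS minus Healthy (right), ordered by DNBS minus Healthy, with single-exon assays as red diamonds. Single-exon assays lie at the low end in DNBS minus Healthy, down to -1.51 for Ccr8, and Selp lies highest at 1.59.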

How the data were processed

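Total RNA of ileal mucosa from 20 mouse samples was isolated with the mirVana kit, checked on a Bioanalyzer and measured on the TaqMan OpenArray mouse inflammation panel, per the labels' protocols. Per the file headers, the authors deposited unnormalized raw Ct values in a table called a truncated example. Baseline and threshold settings, and whether a value averages several wells, are not given in the sources used here. A value of 40 stood for no amplification (1273 values) and was left missing, as was 1 empty value. From these Ct values the relative level, on a log2 scale under the assumption of doubling, was computed as described above.

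Assays needing at least 3 values per group (569 of 648) entered limma 3.58.1 under R 4.3.3: group means over all 20 samples, empirical Bayes with a trend, two-sided tests, adjustment over all assays within each of 6 comparisons, threshold 0.05. The fit was tested on simulated data. The exact permutation tests were run with scipy 1.17.1. The members, the homing list, the marker lists and the alternatives were chosen with earlier results of these data known. Named are the 4 members, and of other genes the ligands Ccl20 and Cxcl16, homing genes with an unadjusted p under 0.05, and the 3 assays most correlated with each member. One result under this rule is not reported here. Ccr3 and Cxcr3 were named after their values were seen. Alternatives were other normalizers, handling of missing, early and late values, filters, moderation, samples in the fit, array weights, centring of single-exon assays and leaving out each sample. The mean Ct as a covariate and the omission of the sample of latest mean Ct in each group were chosen after seeing the data.

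The labels do not say that a replicate number marks a shared litter or day, so the model has no block. Same-numbered DNBS and Healthy samples (3 pairs) deviated together, with correlations of 0.14 to 0.49, and blocked values are given for the members in that comparison. For CEC and DNBS samples (3 pairs) they were -0.12 to 0.34. The values were 0.11 to 0.13 for CEC and Healthy (2 pairs) and -0.40 to -0.15 for Nissle and Healthy samples (3 pairs). They were -0.27 to 0.35 for Nissle and DNBS (5 pairs) and -0.35 to 0.44 for CEC and Nissle samples (3 pairs).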

Additional observations from a re-analysis of the deposited data

Results flagged for a closer look

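Ccl25 in Healthy 5 had a relative level of 5.26, against 6.04 in the nearest Healthy sample, a gap of 0.92 of the range of the 5 Healthy samples (critical value 0.71). It was 1 of 16 combinations of gene and group examined, and chance marks about 1 in 20 groups. Healthy 5 was also the lowest Healthy sample for Ccr9, Ccr6 and Cxcr6.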

How the results depend on the processing

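Each difference was recomputed under 39 settings, 20 of which leave out 1 sample each, and 18 of the 24 differences kept their sign in all 39. The number of members passing the adjusted threshold was 0 in each of the 6 comparisons and stayed 0 in all settings but array weights, which gave 2 in DNBS against Healthy and 3 in CEC against DNBS samples. Leaving out 1 sample gave 0 members in each comparison. Over all 39 settings the Ccl25 difference in DNBS against Healthy samples ranged from -1.69 to -1.11 (adjusted p 0.00586 to 0.669 in limma) and the Ccr9 difference in CEC against DNBS samples from 1.0 to 2.01 (adjusted p 0.0232 to 0.632 in limma). The other 6 changed sign in at least 1 setting. Ccl25 in CEC minus Nissle ranged from -0.00954 to 0.77 when 1 sample was left out (below 0 without Nissle 1) and was 1.15 without Nissle 3, 4 and 5, and Ccl25 in Nissle minus DNBS was -0.0399 without Nissle 3, 4 and 5. Ccr6 in CEC minus Healthy was 0.0218 with the single-exon assays centred apart, 0.48 with the replicate block, 0.34 without the sample of latest mean Ct in each group, and -0.26 to 0.28 when 1 sample was left out (above 0 without CEC 7, at 0.28, and without Healthy 3, at 0.06). Ccr9 in CEC minus Nissle was -0.0673 without normalization. Cxcr6 in CEC minus Nissle was 0.57 with the replicate block, 0.19 with the mean Ct as a covariate, 0.0544 without the sample of latest mean Ct in each group, and -0.44 to 0.24 when 1 sample was left out (above 0 without CEC 7). Cxcr6 in DNBS minus Healthy was 0.32 with the single-exon assays centred apart. The cause was not tested. Among all 569 assays, 1 was called in DNBS against Healthy samples, and 9 in the fit of these groups alone, 101 with array weights, 2 with the replicate block, 7 without DNBS 5 and 6 without Nissle 1. In CEC against DNBS samples 0 were called (61 with an unadjusted p under 0.05 in limma), and 47 with array weights. In CEC against Healthy and in Nissle against Healthy samples 1 assay was called, with 0 to 2 and 0 to 3 in the other settings. The replicate block changed no call of a member.

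Limits: 5 samples a group leave a median SE of 0.42 for a log2 difference. Doubling per cycle was assumed, and a sample may hold RNA of several mice. Technical replicate error, genomic DNA and the time after DNBS were not measured in the values used here.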
